A study of Mus musculus with 6 samples.

Results

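Classical monocytes are the Ly6C-high cells that leave the blood and enter injured tissue, and they were picked here out of the CD45+ cells of mouse soleus muscle during disuse and recovery. The members were selected on measured values: a barcode had to hold a UMI (unique molecular identifier, a single counted transcript) of Csf1r and of at least 3 of the 6 genes Ly6c2, Plac8, Chil3, Vcan, Hp and Ifitm6. It could hold no more than 1 of the nonclassical genes Ace, Treml4, Cd300e and Adgre4, no more than 1 UMI over C1qa, C1qb and C1qc, and no UMI of Cd3e, Cd79a, Flt3 or Cxcr2. By this rule 457 of 12520 kept cells were classical monocytes, with kept cells being those of the 15467 barcodes that had at least 200 genes and at most 10% mitochondrial UMIs.

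Male C57BL/6 mice aged 20–22 months (old) or 4–5 months (young) were left ambulatory (control), unloaded at the hindlimbs for 14 days (HU), or unloaded and then reloaded for 4 days (reload). Solei were pooled from 20 old and 10 young control mice, 10 old and 8 young HU mice, and 10 old and 10 young reload mice, sorted as CD45+ DAPI− cells and run as 1 10x Genomics library per group, so no group has a replicate and the pooled animals cannot be separated. Per the labels both control libraries were in 1 sequencing run and the HU and reload libraries in another, and the sample titles carry a different leading number for each treatment, shared by both ages. The sequencing run and the contrast of control with HU or reload cannot be told apart, nor can whatever those numbers mark and any contrast of treatments. The labels name no transgene or deletion in any group.

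In the textbook view, classical monocytes are made in bone marrow, leave it through the chemokine receptor Ccr2, and reach injured muscle within days. There they produce chemokines and cytokines and take up debris, and many then lose Ly6C, gain major histocompatibility complex (MHC) class II or complement genes and become macrophages. Neutrophil-attracting CXC chemokines and other early inflammatory genes of these cells are known targets of NF-kB, and a second group of genes, such as Irf7 and Ly6a, is induced by interferons.

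Among the chemokine genes described below, Cxcl1, Cxcl2 and Cxcl3 lie close together on chromosome 5 and Cxcl10 farther along it, and their proximal promoters are shown because all 4 had fewer UMIs per 1000000 in old than in young monocytes at reload. Each line is the 170 bases before the RefSeq start site on GRCm38.p6, 5′ to 3′ on the gene's strand, with matches of GGGNNNTTCC on either strand, a form of the NF-kB motif, in capitals. The coordinates are chr5:90903729-90903898 (plus strand) for Cxcl2, chr5:90891075-90891244 (plus strand) for Cxcl1, chr5:90785931-90786100 (plus strand) for Cxcl3 and chr5:92348890-92349059 (minus strand) for Cxcl10.
Cxcl2: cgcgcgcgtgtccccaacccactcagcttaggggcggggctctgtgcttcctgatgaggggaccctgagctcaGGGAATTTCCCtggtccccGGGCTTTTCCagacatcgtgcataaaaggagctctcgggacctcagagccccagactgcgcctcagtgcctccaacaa
Cxcl1: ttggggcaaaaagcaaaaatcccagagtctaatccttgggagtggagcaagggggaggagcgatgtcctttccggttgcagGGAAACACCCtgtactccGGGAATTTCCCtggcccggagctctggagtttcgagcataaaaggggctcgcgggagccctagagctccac
Cxcl3: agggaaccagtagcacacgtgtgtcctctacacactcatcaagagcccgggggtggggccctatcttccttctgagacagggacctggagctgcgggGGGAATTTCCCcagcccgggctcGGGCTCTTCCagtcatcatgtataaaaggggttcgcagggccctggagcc
Cxcl10: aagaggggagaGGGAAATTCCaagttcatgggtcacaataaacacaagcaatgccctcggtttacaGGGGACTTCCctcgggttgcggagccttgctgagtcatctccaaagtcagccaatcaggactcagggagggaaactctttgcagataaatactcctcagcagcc

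In Cxcl2 the matches started 97, 96 and 78 bases before the start site, and the first pair is a single run read on both strands. Cxcl1 had matches at 89, 71 and 70 bases, Cxcl3 at 73, 72 and 50, and Cxcl10 at 159 and 104, and the overlapping pairs in Cxcl1 and Cxcl3 are again a single run. Across all RefSeq promoters in the table, 1108 of 32851 (3.37%) held the motif in the same 170 bases. A match is a stretch of letters and no binding was measured.

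As a share of kept cells in the main setting, classical monocytes were most frequent at reload and least frequent after unloading. They made up 3.95% of the kept cells in old control (104 of 2631, 95% exact binomial interval 3.24% to 4.77%) and 1.87% in young control (30 of 1605, 1.26% to 2.66%). After HU they made up 1.53% in old (29 of 1890) and 0.264% in young (4 of 1518, 0.0718% to 0.673%). At reload they made up 6.52% in old (158 of 2425, 5.57% to 7.57%) and 5.39% in young (132 of 2451, 4.53% to 6.35%). In old mice the order of control and reload depended on the setting. With each cell thinned to 2000 UMIs before the gate, the share was 5.74% in old control and 5.53% in old reload. In young it was then 2.09% in control and 3.54% at reload. Counted among cells with a Csf1r UMI, the share was also higher in old control than in old reload.

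The share of kept cells was higher in the old than in the young library in control, by 2.08 points (1.04 to 3.07), and after HU, by 1.27 points (0.65 to 1.95). At reload the difference of 1.13 points had an interval (−0.20 to 2.47) that included 0, and counted among cells with a Csf1r UMI it was 1.90 points (0.04 to 3.78). These intervals, like all others below, cover counting error only and not differences between animals or sorts. The intervals of CPM and of ratios below also take each UMI as independent, so they leave out the spread between cells. The limit on C1q decided the direction at reload: it alone removed 118 cells from old reload and 229 from young reload, and without it the old share was 3.35 points below the young share (−3.35). The young reload library also had the most barcodes over the mitochondrial limit, 33.3% against 17.4% in old reload; the part of this in the shares was not tested.

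**Figure D1:**
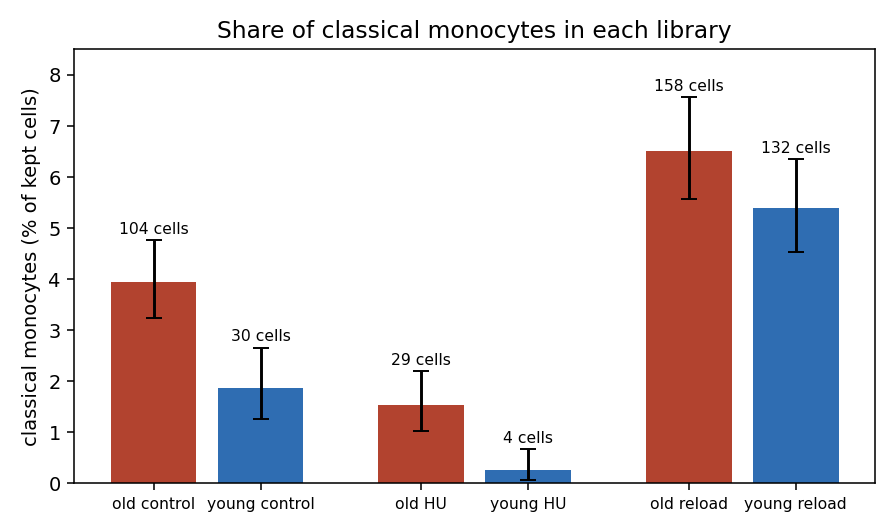
Classical monocytes as a share of the kept cells (y axis, %) in each library, with old in red and young in blue; bars are shares, error bars are 95% exact binomial intervals and the number of members stands above each bar. The share was 6.52% in old reload and 5.39% in young reload, and young HU held only 4 members.

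Nonclassical monocytes, the Ly6C-low cells that patrol vessels, followed another pattern. There were 120 in old control and 49 in young control, 25 in old HU and 3 in young HU, and 93 in old reload and 17 in young reload. The reload libraries therefore held 1.70 classical monocytes per nonclassical monocyte in old and 7.76 in young, against 0.867 in old control and 0.612 in young control. Cells with at least 3 C1q UMIs, called C1q macrophages here, numbered 1105 in old reload and 1213 in young reload.

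The members held genes of their label beyond the gate, but these genes were shared with the nearest cell types. The 17 other classical monocyte genes, among them Ccr2, Lyz2, F13a1 and Mgst1, summed to between 26344 and 41992 UMIs per 1000000 (CPM) across the libraries. The same genes summed to between 12986 and 28664 CPM in nonclassical monocytes and between 17732 and 25331 CPM in C1q macrophages. Lyz2, the lysozyme of myeloid cells, had 24315 CPM in old control, 25156 CPM in young control, 12408 CPM in old HU, 24540 CPM in old reload and 20388 CPM in young reload. Young HU is left out of gene comparisons because its 4 cells held 14134 UMIs, while the other libraries' members held between 156509 and 1131014 UMIs.

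The gate genes themselves describe the selection and are not a result. Ly6c2 had 1756 CPM in old control, 2012 CPM in young control, 805 CPM in old HU, 1709 CPM in old reload and 2077 CPM in young reload, and reads of Ly6c2 may be split with its near copy Ly6c1. Of the members, 87 held 3 gate genes, 94 held 4, 135 held 5 and 141 held all 6, and 102 cells with 2 gate genes stood just outside. At the other limit 397 members had no C1q UMI and 60 had 1, with 6 cells at 2 UMIs and 407 at 3 or more just outside. A single member, in old control, was marked as a doublet.

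Markers of other cells were low but not evenly so. The selection fixed part of these values in advance, so low sums are no test of purity. T cell genes summed to between 0 and 14.1 CPM, and 4 of the 8 were at 0 in all libraries, among them Cd3e, which the gate barred. Macrophage genes summed to 3017 CPM in old reload and 5881 CPM in young reload, where C1q macrophages had 13901 CPM or more. That list holds C1qa, C1qb and C1qc, which the gate limited in the members and which defined the C1q macrophages. The neutrophil list summed to 4022 CPM in old control and 1466 CPM in young control, to 1156 CPM in old HU, and to 292 CPM in old reload and 64.0 CPM in young reload. Of its 11 genes 2 were at 0 throughout, among them Cxcr2, which the gate barred. The endothelial list summed to 1648 CPM in old HU and to at most 142 CPM in the other libraries, and the NK cell list to 254 CPM in old control and at most 3.57 CPM elsewhere. Single cells carried much of this: 1131 of the 1795 S100a9 UMIs of old control, 190 of its 191 Gzma UMIs and 134 of the 168 Fabp4 UMIs of old HU each came from 1 cell.

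Old and young monocytes at reload were compared first, since recovery after disuse is the setting the study was built around. Inflammatory chemokine genes, interferon-induced Irf7 and Ly6a, and genes of macrophage differentiation were lower in old, while Mgst1 and the integrins Itgal and Itga4 were higher. A gene was called when it held at least 50 UMIs over both libraries and its ratio of CPM was at least 2-fold, which ranks by size and tests nothing. Among 4048 genes 47 (1.16%) were higher in old and 111 (2.74%) were lower, and the median log2 ratio of all genes was −0.03. Without each gene's top cell the counts were 47 and 101, and with mitochondrial, ribosomal and haemoglobin genes left out of the total they were 72 and 80.

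Cxcl2, which attracts neutrophils, had 466 CPM in old control and 1844 CPM in young control, 1457 CPM in old HU, and 2048 CPM in old reload and 5848 CPM in young reload. Its level was thus lower in the old library of both treatments that could be compared, by a log2 ratio of −1.51 (−1.58 to −1.44) at reload and −1.99 (−2.17 to −1.80) in control. Its neighbour Cxcl1, a ligand of the same receptor, had 103 CPM in old reload and 357 CPM in young reload (−1.80, −2.11 to −1.49), and 49.9 CPM or less in control and old HU. The UMIs of Cxcl1 sat in 10 cells of old reload and 14 cells of young reload.

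The chemokine and cytokine list moved as a group at reload. Of its 22 measured genes 11 were called lower and 1 higher, with a median log2 ratio of −1.0 against −0.03 for all genes. Cxcl10, which draws activated T cells, had 36.3 CPM in old reload and 159 CPM in young reload (−2.13, −2.66 to −1.63), but its share of young cells was close to that in T cells, as given below. Il1a, an alarm cytokine, had 4.42 CPM in old and 46.0 CPM in young (−3.38, −5.07 to −2.05), on 5 and 46 UMIs. Tnf had 176 CPM in old and 456 CPM in young (−1.37), and Ccl4, a chemokine for monocytes and T cells, 149 and 433 CPM (−1.53). Il1b was lower by less, at 2494 CPM in old reload and 4547 CPM in young reload (−0.87, −0.93 to −0.80). The 1 gene called higher, Ccl7, had 49 of its 78 old UMIs in a single cell, and without the top cell of each library its ratio was 0.59.

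Of 27 genes that respond to NF-kB 5 were called lower and none higher, with a median of −0.78. They included Nfkbia, the inhibitor that NF-kB itself induces, at 1115 CPM in old reload and 2284 CPM in young reload (−1.03), Nfkbiz with 163 and 385 CPM (−1.24), and Trem1, an amplifying receptor of myeloid cells, with 98.1 and 220 CPM (−1.16). Both medians depended on the C1q limit, since they were −0.25 for chemokines and −0.35 for NF-kB genes when cells with any number of C1q UMIs were let in.

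**Figure D2:**
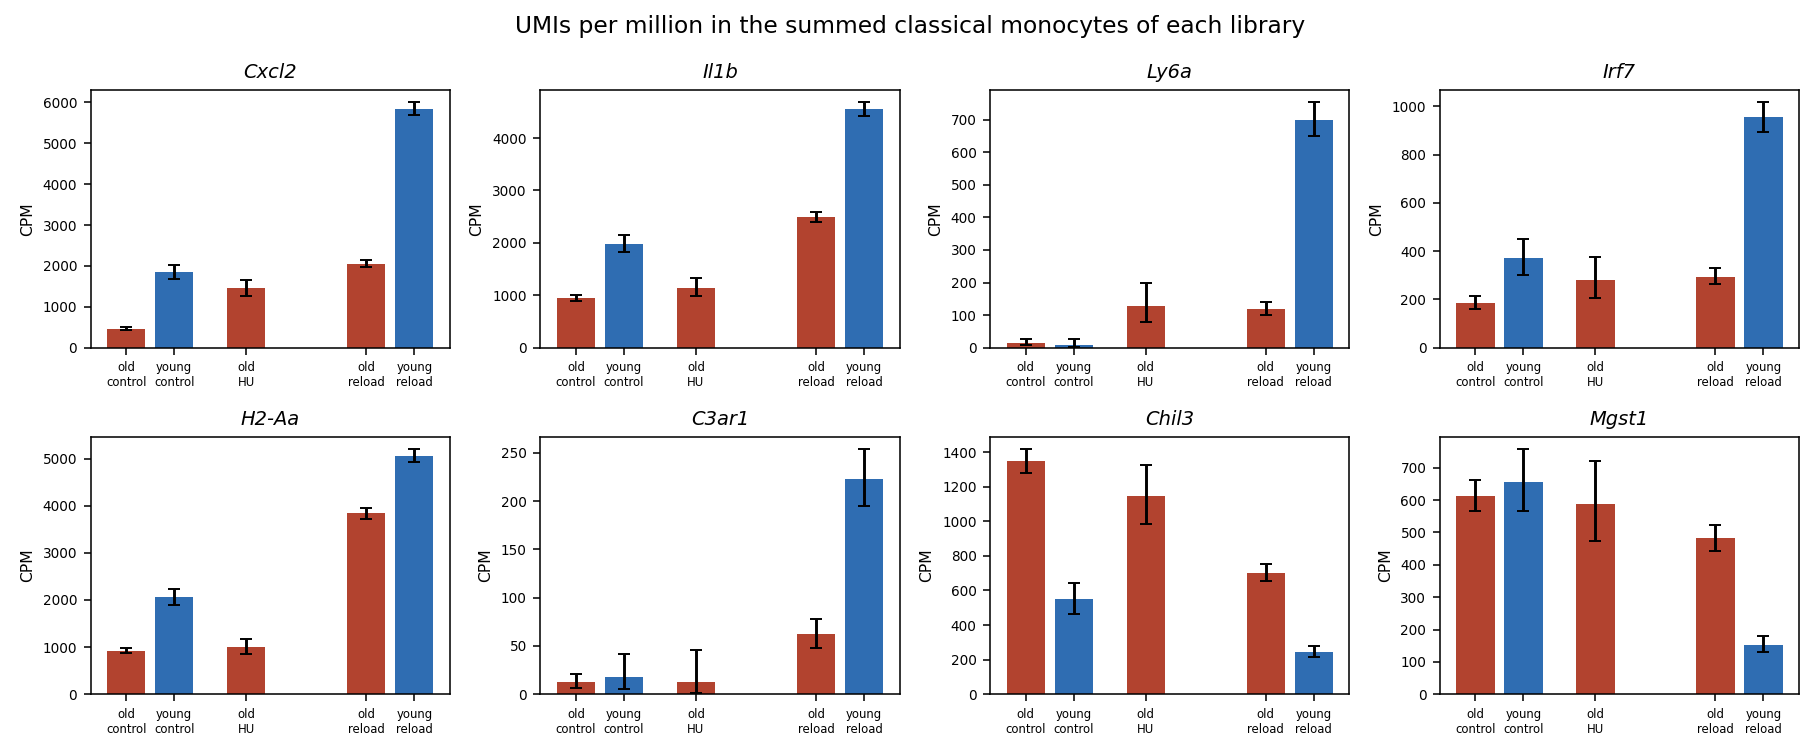
Level (y axis, CPM) of 8 genes in the summed classical monocytes of each library, with old in red and young in blue; error bars are 95% exact Poisson intervals and young HU, with 4 cells, is not drawn. Cxcl2, Il1b, Ly6a, Irf7 and C3ar1 stand highest in young reload, and Mgst1 and the gate gene Chil3 stand lowest there.

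The interferon-induced genes did not move as a list. Their median was −0.04, and 3 of 48 were called lower: Slfn4, Ifi205 and Irf7, the master regulator of type I interferon. Irf7 had 186 CPM in old control and 371 CPM in young control, 281 CPM in old HU, and 295 CPM in old reload and 954 CPM in young reload (log2 ratio −1.69, −1.88 to −1.51, at reload). Ly6a, also called Sca-1, had at most 16 CPM in control, 128 CPM in old HU (all 20 UMIs in 1 cell), and 118 CPM in old reload and 699 CPM in young reload (−2.56, −2.84 to −2.29). Young reload thus stood apart from the other libraries in Irf7 and Ly6a.

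Genes of monocyte-to-macrophage differentiation were lower in old reload than in young reload, with a median of −0.69 and 6 of 22 called lower and none higher. Apoe, a lipid carrier of macrophages, had 2114 CPM in old and 4504 CPM in young (−1.09), Lgmn, a lysosomal protease, 332 and 748 CPM (−1.17), and Spp1, osteopontin, 11.5 and 69.9 CPM (−2.61). Of 13 Fc and complement receptor genes 5 were lower and none higher (median −0.55). C3ar1, the receptor for the complement fragment C3a, had 61.9 CPM in old and 223 CPM in young (−1.85, −2.26 to −1.45), and C5ar1 206 and 509 CPM (−1.30). The summed macrophage list was lower in old by the same libraries (3017 against 5881 CPM), and its part in these ratios was not tested.

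The glycolysis and HIF-1 list had a median of −0.51 with 3 of 19 genes lower, namely Bnip3 (16.8 CPM in old and 67.9 CPM in young, −2.02), Tpi1 (125 and 320 CPM, −1.36) and Pfkl (17.7 and 43.0 CPM, −1.28). Oxidative phosphorylation genes had a median of 0.23 with 1 of 47 called, Atp5k. MHC class II genes had a median of −0.47, and only Cd83 was called, with the dendritic cell list at 115 CPM in old and 187 CPM in young. H2-Aa, a class II chain, had 3842 CPM in old reload and 5066 CPM in young reload (−0.40, −0.46 to −0.34).

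Among the genes higher in old reload, Mgst1, a microsomal glutathione transferase abundant in classical monocytes, had 482 CPM in old and 153 CPM in young (1.66, 1.39 to 1.92), while in control its levels were 613 and 656 CPM and in old HU 588 CPM. Chil3, a chitinase-like protein, had 701 CPM in old reload and 244 CPM in young reload (1.52, 1.32 to 1.74), but it was used in the gate. Itgal, the LFA-1 alpha chain, had 116 CPM in old and 43.0 CPM in young (1.43), and Itga4, the VLA-4 alpha chain that binds vessel walls, had 197 and 88.9 CPM (1.15, 0.79 to 1.52). Young reload was therefore the low library in Mgst1 and Itgal. Pglyrp1, a granule protein, had 42.4 and 6.99 CPM (2.60, 1.45 to 3.99). S100a9 had 134 CPM in old and 0.999 CPM in young, and 149 of its 151 UMIs in old reload were in 1 cell.

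**Figure D3:**
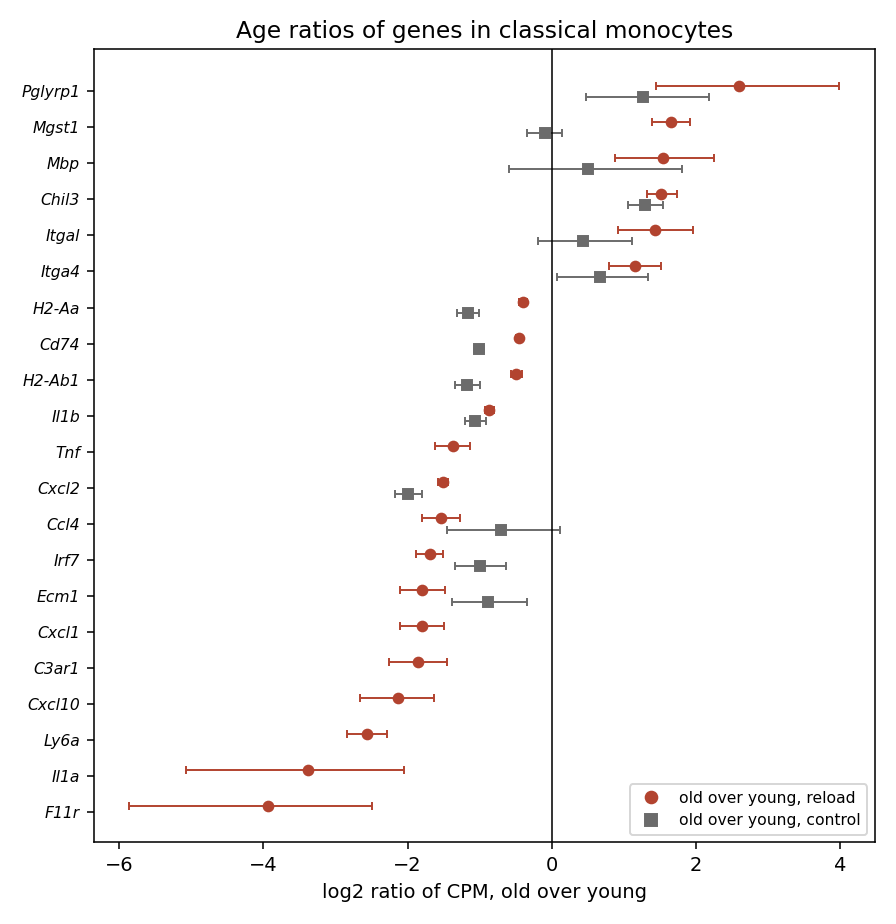
Log2 ratio of CPM in old over young classical monocytes (x axis) for the genes on the y axis, at reload in red circles and in control in grey squares, with 95% counting intervals; a gene with under 50 UMIs over both libraries is not drawn. Cxcl2 and Il1b lie left of 0 in both treatments and Mgst1 lies at 1.66 at reload and −0.10 in control.

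The age ratios of the monocytes were set beside those of C1q macrophages in the same 2 reload libraries, as a description. Cxcl2 was higher in macrophages than in monocytes at both ages, at 10862 CPM in old and 10753 CPM in young, and its ratio there was 0.01 on the log2 scale (0.00 to 0.03). Cxcl1 had a ratio of −0.01 in macrophages, and Cxcl10 had one of 1.19 (1.10 to 1.27) in macrophages beside −2.13 in monocytes. Ly6a and Irf7 were lower in old in both, with −1.45 and −0.68 in macrophages. Mgst1 was −0.37 and Chil3 −0.55 in macrophages, at 48.9 CPM or less for both genes. No test of the difference between the cell types was possible with 1 library per group.

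Single cells showed how these levels were distributed, after each cell was thinned to 2000 UMIs so that depth was equal. Cxcl2 was found in 28.7% of the old (95% exact binomial interval 21.7% to 36.4%) and 52.3% of the young reload monocytes (43.4% to 61.0%), while T cells of the same libraries, which should lack it, had 5.8% and 6.12% at median depths of 2988 and 3305 UMIs. Without thinning the shares were 36.7% and 63.6% at median depths of 6998 and 7816.5 UMIs. Mgst1 was found in 49.7% of old and 18.2% of young monocytes and in none of the T cells. Ly6a was found in 8.28% of old and 31.8% of young monocytes, but T cells express Ly6a themselves, so they give no background for it. Cxcl10 was in 5.73% of old and 14.4% of young monocytes, with 2.90% of old and 10.2% of young T cells, so no order was read from these shares.

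**Figure D4:**
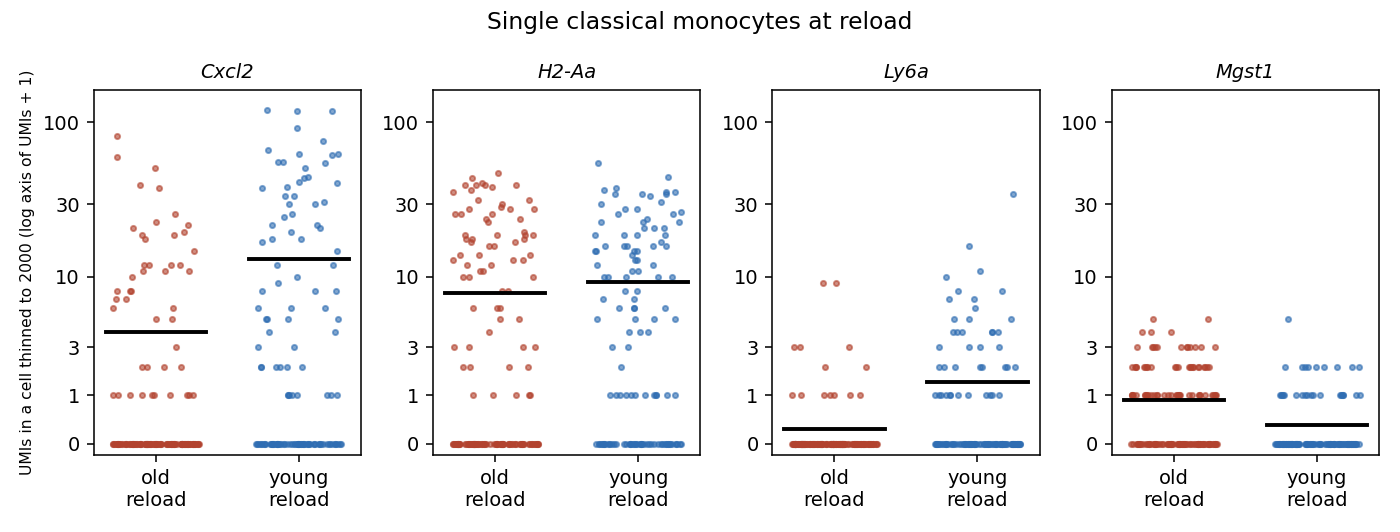
UMIs per cell thinned to 2000 UMIs (y axis, logarithm of UMIs + 1) for 4 genes in single classical monocytes of old reload (red, left) and young reload (blue, right); lines mark the mean. In a separate random thinning of the same cells, which gave the shares in the text, Cxcl2 was present in 28.7% of old and 52.3% of young cells. Its UMIs were concentrated in few cells in both libraries.

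MHC class II genes and Cxcl2 were among the 10 genes that varied most between members in both reload libraries. In old reload the variance over the mean was 33.8 for Cxcl2, 52.6 for Cd74 and 18.5 for H2-Aa, and in young reload it was 47.2, 41.1 and 16.1, where the median gene had 1.07 to 1.08. The tenth of the cells with most Cxcl2 held 76.8% of its UMIs in old and 59.4% in young. Other genes at the top were S100a9 (111, in 1.27% of cells), S100a8 (57.8, in 3.82%) and Lyz1 (48.2, in 5.73%) in old reload, and Il1b (28.4, in 65.9%) in young reload.

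Cells with and without an H2-Aa UMI were then set apart within each reload library, since H2-Aa was among the most variable genes of both. An H2-Aa UMI was found in 69 of 157 old cells (43.9%) and 80 of 132 young cells (60.6%). Among cells with it, Cxcl2 had a mean of 7.19 UMIs in old and 13.3 in young (log2 ratio −0.88, −1.04 to −0.73). Among cells without it, the means were 1.48 UMIs in old and 13.2 in young (−3.15, −3.44 to −2.88). The young monocytes thus held about the same Cxcl2 in both classes, and the old monocytes without class II held the least.

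Ly6a followed the same split, with a log2 ratio of −1.31 among cells with an H2-Aa UMI and −4.74 among those without, as did Irf7 with −0.92 and −2.28. Mgst1 was found in 18.8% of old and 16.2% of young cells with H2-Aa, and in 69.3% of old and 30.8% of young cells without it. The gate gene Chil3, whose level the selection shaped, had ratios of 1.44 and 1.15. The differences between the classes were not tested.

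In control the old monocytes were compared with the young in the same way, on 104 and 30 cells. Of 3000 genes 253 (8.43%) were higher in old and 81 (2.70%) lower, and the median of all genes was 0.19, so ratios are read against that value. With TMM scaling the median was 0.01 and the counts were 159 higher and 136 lower. Without each gene's top cell the counts were 391 and 40, and the median was 0.37. The totals were kept there, so leaving out 1 cell took a larger part of the 30 young cells than of the 104 old cells. Values without top cells are read against that median. Cxcl3 had 45.2 CPM in old control and 557 CPM in young control (−3.62, −4.12 to −3.15). The chemokine list had a median of −0.85 with 5 of 12 lower, and the median was −0.39 without each gene's top cell. Across all alternatives it lay between −1.04 and −0.01, so its size depended on the setting. Granule genes were higher, with 7 of 20 called and a median of 0.72: Lcn2, an iron-sequestering antibacterial protein, had 220 CPM in old and 3.57 CPM in young (5.95, 3.46 to 11.26), and Prtn3, a serine protease of promonocytes, had 145 and 3.57 CPM (5.34, 2.84 to 10.66). The young value of Lcn2 and of Prtn3 is a single UMI. The neutrophil list moved with them (4022 against 1466 CPM), and its part was not tested.

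Of 10 MHC class II genes 7 were called lower in old control, with a median of −1.09, and the dendritic cell list summed to 107 CPM in old and 143 CPM in young. Cd74, the invariant chain, had 4625 CPM in old and 9326 CPM in young (−1.01), and H2-Aa 921 and 2059 CPM (−1.16, −1.31 to −1.01). When cells were thinned before the gate the class II median was 0.45, the opposite sign, so no direction was read from it. Hmox1, heme oxygenase, had 3513 CPM in old and 9922 CPM in young (−1.5). The heat shock gene Hspa1b had 19.8 CPM in old and 610 CPM in young, where 101 of 171 young UMIs came from 1 cell. Ccl5 and Gzma, which looked higher in old, came mainly from the old cell marked as a doublet, which held 388 of 487 Ccl5 UMIs.

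Reload was set against HU within old mice, where the labels put both libraries in the same sequencing run but give them different title numbers. Of 2845 genes 341 (12.0%) were higher at reload and 83 (2.92%) lower, and the median of all genes was 0.07. Without each gene's top cell, with the totals again kept, the counts were 542 and 28 and the median was 0.30. Ratios without top cells are read against that value. Of 10 MHC class II genes 8 were called higher, with a median of 1.67. H2-Ab1 had 2469 CPM in old reload and 326 CPM in old HU (2.92, 2.52 to 3.35), H2-Eb1 2582 and 524 CPM (2.30), H2-Aa 3842 and 997 CPM (1.95), and Cd74 12950 and 5028 CPM (1.36). The dendritic cell list moved with them, at 115 CPM in old reload and 38.3 CPM in old HU, with both of its measured genes called higher: Irf8 (68 and 2 UMIs, 2.23) and Cd209a (53 UMIs and 1 UMI, 2.87). Of its 10 genes 2 were at 0 in all libraries and Flt3 was barred by the gate, and its part in the class II values was not tested.

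The other groups higher at reload were chemokines and cytokines (8 of 15 higher, 3 lower, median 1.12), interferon-induced genes (13 of 36 higher, none lower, median 0.73) and MHC class I (4 of 11 higher, median 0.75). Tnf had 176 CPM in old reload and 38.3 CPM in old HU (2.20), and Il1b 2494 and 1144 CPM (1.12). Ccr2, the receptor for marrow exit, had 547 and 204 CPM (1.42), and Slfn5, an interferon-induced gene, 233 and 38.3 CPM (2.60). Cxcl3, Ccl7 and Ccl2 were called lower at reload, but all 35 Cxcl3 UMIs and all 37 Ccl7 UMIs of old HU were in 1 cell each, and Ccl2 (263 CPM in old reload and 677 CPM in old HU, −1.37) had a ratio of 0.95 without its top cells. The immediate early gene Jun had 92.8 CPM in old reload and 562 CPM in old HU (−2.60, and −1.82 without top cells), and Fabp4, a lipid chaperone of vessel cells, had 8.84 and 1073 CPM, of which 134 of 168 HU UMIs came from the old HU cell that also held 59 of 60 Ly6c1 UMIs.

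**Figure D5:**
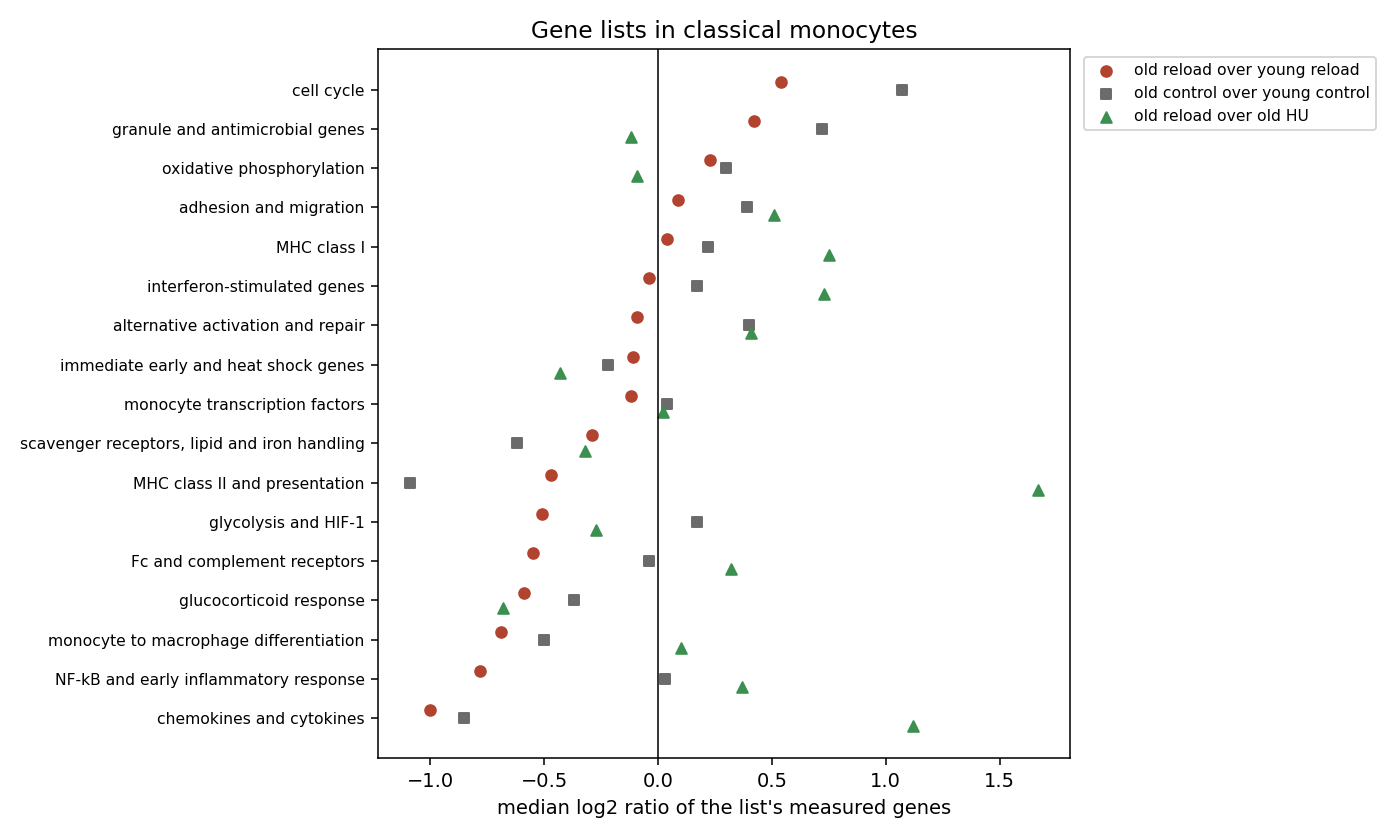
Median log2 ratio (x axis) of the measured genes of 17 lists (y axis) in classical monocytes, for old over young at reload (red circles), old over young in control (grey squares) and old reload over old HU (green triangles). Chemokines and cytokines lie at −1.0, −0.85 and 1.12, and MHC class II at −0.47, −1.09 and 1.67.

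Age was also tested across control and reload together, taking the age difference as the same in both. The quasi-likelihood test of edgeR was run on the 5 libraries with over 10 members. The fit had 1 residual degree of freedom, so the spread came largely from information shared between genes, and young HU was dropped. Old HU then had no young library beside it, so it adds nothing to the age difference. Of 7391 genes 15 (0.203%) rose and 57 (0.771%) fell in old at an adjusted p under 0.05, and the median log2 change was −0.00. With each gene's top cell left out, 36 of these 72 remained, all in the same direction, while DESeq2 called 5 genes.

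The genes that fell in old in both fits were led by chemokines. Cxcl3 fell by 2.66 on the log2 scale (adjusted p = 5.46e-15), Cxcl1 by 2.34 (adjusted p = 4.24e-09) and Cxcl2 by 1.83 (adjusted p = 2.18e-05), and Ly6a fell by 1.93 (adjusted p = 1.01e-05) and Irf7 by 1.45 (adjusted p = 4.19e-05). Il1b (−1.05, adjusted p = 0.0969), Tnf (−0.90, adjusted p = 0.289) and H2-Aa (−0.86, adjusted p = 0.371) did not pass. Among the genes that rose, Lcn2 (5.78, adjusted p = 3.06e-13) and Pglyrp1 (1.72, adjusted p = 0.00102) passed in both fits. Chil3 rose by 1.32, but it was a gate gene, so the selection shaped its level and the fit is no test of it. Gzma rose by 7.66 (adjusted p = 1.31e-09) on 1 cell, and it was not called without the top cells. Mgst1, called at reload, did not pass across treatments (0.68, adjusted p = 0.491).

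Reload against HU across ages was tested in the same 5 libraries, where 35 of 7391 genes (0.474%) rose at reload and 37 (0.501%) fell, with a median log2 change of 0.14. This contrast rests on old mice, because no young HU library entered, so it is no test across ages. Old HU was the only HU library in the fit. The p-values therefore take their spread from the control and reload libraries and measure none between HU libraries. H2-Ab1 rose by 2.74 (adjusted p = 7.61e-06) and H2-Eb1 by 2.12 (adjusted p = 0.00112), and both were called with top cells left out, where H2-Aa (2.36, adjusted p = 0.00656) also passed. Tnf rose by 2.46 (adjusted p = 0.0036), Ptgs2, the inducible prostaglandin synthase, by 2.81 (adjusted p = 0.00524) and Tlr2, a receptor for bacterial lipoproteins, by 2.05 (adjusted p = 0.00754). Jun fell by 2.50 (adjusted p = 1.39e-08). Of the 72 calls 29 remained without top cells, and DESeq2 called 10.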

How the data were processed

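The deposited files hold whole-number UMI counts per gene and barcode, which the authors left unscaled after alignment to mm10 in Cell Ranger 3.1.0. Members and lists were chosen with earlier results of these data known. Counts were summed over the members of each library and divided by their total; intervals for ratios are exact conditional binomial intervals, those for differences of shares are Newcombe's, and a gene at 0 was set to 3 counts. Summed members of the 5 libraries with over 10 members were tested, with terms for treatment and age, with edgeR 4.0.16 (quasi-likelihood, TMM, Benjamini-Hochberg) in R 4.3.3, with DESeq2 1.42.0 as an alternative. Comparisons with young HU were planned but its 4 members gave none. Scrublet (scanpy 1.11.5) marked doublets, and the other tools were Python 3.11.15, scipy 1.17.1, numpy 2.4.6, matplotlib 3.10.9 and pandas 2.3.3. Ratios and fits were tested on simulated data. No barcode of the members was among the 41 that the control libraries shared; the other 14 pairs of libraries shared 5 to 17.

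Genes were named if they were gate genes, the 10 called genes each way with intervals farthest from 0 (5 outside old against young at reload), the 4 largest or the extreme members of a list, the 10 lowest p each way in a fit, the 10 most variable genes of a reload library, or genes named in the study's macrophage figures. Other genes named with values belong to those lists and were chosen after their values were seen. A gene that the rule names is not reported here. Gene coordinates used GENCODE M21, which matched 99.62% of 31053 identifiers. Other settings were stricter or looser gates, other scalings, count minimums, leaving out libraries, and, added after the data were seen, leaving out each gene's top cell, adding young HU to the fits and leaving out shared barcodes.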

Additional observations from a re-analysis of the deposited data

Results flagged for a closer look

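Atp5k, a subunit of the mitochondrial ATP synthase, was 2-fold or more different between ages in opposite directions in the 2 treatments. At reload its log2 ratio of old over young was 1.13 (203 CPM in old and 92.9 CPM in young), and in control it was −1.01 (78.1 and 157 CPM). The C1q macrophages of the same libraries had ratios of 1.0 at reload and −1.20 in control for Atp5k. The difference between the treatments could not be tested with 1 library per group.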

How the results depend on the processing

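No paired analysis was possible because each group is 1 library with no replicate number to pair. The treatment term of the age test sets old against young within control and within reload, since young HU was not in the fit. Of 100 alternatives for 8 shares and counts of genes, 77 stayed near the main value, and the cause of the shifts below was not tested. For counts only the total called was compared, not the balance of higher and lower genes. The 77 thus include control with TMM scaling, with 159 higher and 136 lower against 253 and 81 in the main setting. Without the C1q limit the share differences, old minus young, were −3.35 points at reload, 2.21 after HU and 3.13 in control. Among cells with a Csf1r UMI they were 3.22 after HU and 6.93 in control, with at least 1000 genes 2.46 after HU, and with cells thinned before the gate 3.66 in control. With a minimum of 20 or 200 UMIs the genes called numbered 476 (201 higher, 275 lower) or 45 at reload, 943 or 51 in control, and 1056 or 72 for old reload over old HU. Thinning before the gate gave 518 in control. For old reload over old HU, dropping the C1q limit gave 645 and plain means of UMIs per cell, with no scaling to depth, gave 700, with a median of all genes of 0.47. Leaving mitochondrial, ribosomal and haemoglobin genes out of the total gave 72 higher and 80 lower at reload.

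The age test called 5 genes with DESeq2, 38 without each gene's top cell, 18 with young HU added and 52 without old HU; leaving out another library leaves no residual degree of freedom and was not run. With no treatment term edgeR called 0 genes (332 at an unadjusted p under 0.05, and 486 in the fit with the term). Reload against HU called 10 with DESeq2, 33 without top cells and 39 with young HU added. Leaving out top cells and adding young HU were chosen after seeing the data. Of 844 list medians under alternatives, 745 moved by under 0.25. The direction reversed for cell cycle at reload (−0.04 without the C1q limit) and for MHC class II in control (0.45 with cells thinned before the gate). At this depth young HU (4 members) gave no gene comparison.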
